A study of Xenopus laevis with 4 samples.

Results

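The genes described here encode molecular chaperones and their cofactors: heat shock proteins, J proteins, the cytosolic chaperonin, BAG cofactors, and the folding proteins of the endoplasmic reticulum (ER). Members were the probe sets whose single gene symbol in the platform annotation named an hsp, dnaja, dnajb, dnajc, cct2 to cct8, tcp1, pdia1 to pdia6, p4hb, calr, canx, hyou1 or bag1 to bag6 gene. They numbered 121 of 16745 probe sets and stood for 94 of 11295 genes. Expression had been measured on Affymetrix arrays in Xenopus laevis embryonic skin at stage 24, in 4 samples of 20 whole skins each, from embryos grown at 15 °C in dilute saline. The 2 control samples came from embryos without treatment, and no solvent control is mentioned. The other 2 came from embryos exposed between stages 14 and 24 to SP600125, which inhibits JNK, the c-Jun N-terminal kinase family. The labels give 100 mM as its dose; whether that unit is right could not be checked. The series title speaks of depleted JNK signalling, but no measure of kinase activity was used here. Nothing states that replicates stem from different clutches or matings, so p-values reflect only how far these samples spread, which may be technical.

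Chaperones of the Hsp70 family bind exposed hydrophobic stretches of unfolded proteins in a cycle driven by ATP. J proteins start that cycle, and nucleotide exchange factors such as the BAG proteins end it. Hsp90 acts later, on kinases and receptors among others, while the ring-shaped chaperonin TRiC, also called CCT, folds actin and tubulin. Cytosolic chaperones are induced by heat shock factor when misfolded proteins accumulate, and ER chaperones by the unfolded protein response through ATF6, IRE1 with XBP1, and PERK. Mucus-secreting cells of the embryonic epidermis export much protein through the ER. The question put to the data was whether any of these groups differed in level between treated and control skins.

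No chaperone gene passed the test, and the differences were small. The ER and chaperonin genes had mostly lower means after SP600125, whereas 16 of the 24 J-protein genes of the cytosol, nucleus and vesicles had higher ones when each gene was taken at its brightest probe set, but only 16 of the 31 probe sets of that class. Values below are RMA log2 levels, in the order control replicate 1, control replicate 2, SP600125 replicate 1, SP600125 replicate 2, and differences are SP600125 minus control on the log2 scale, ± SE of the limma fit. A step of 1 on this scale is a 2-fold difference. Brightness depends on the probes, so levels are not comparable between genes. When p-values of the limma fit were adjusted by Benjamini-Hochberg over all 16745 probe sets, 0 members were called at an adjusted p under 0.05, against a background of 0 percent of all probe sets. At an unadjusted p under 0.05 there was 1 member with a higher mean, against 0.699 percent of all probe sets, and 0 with a lower mean, against 0.908 percent. The adjusted p was 1 for every member in this fit. At the brightest probe set of each gene, only 3 of the 94 had a mean at least 1.5-fold higher (3.2 percent of all genes). A mean at least 1.5-fold lower was seen for 1 (3.82 percent of all genes), and 0 differed by 2-fold.

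**Figure D1:**
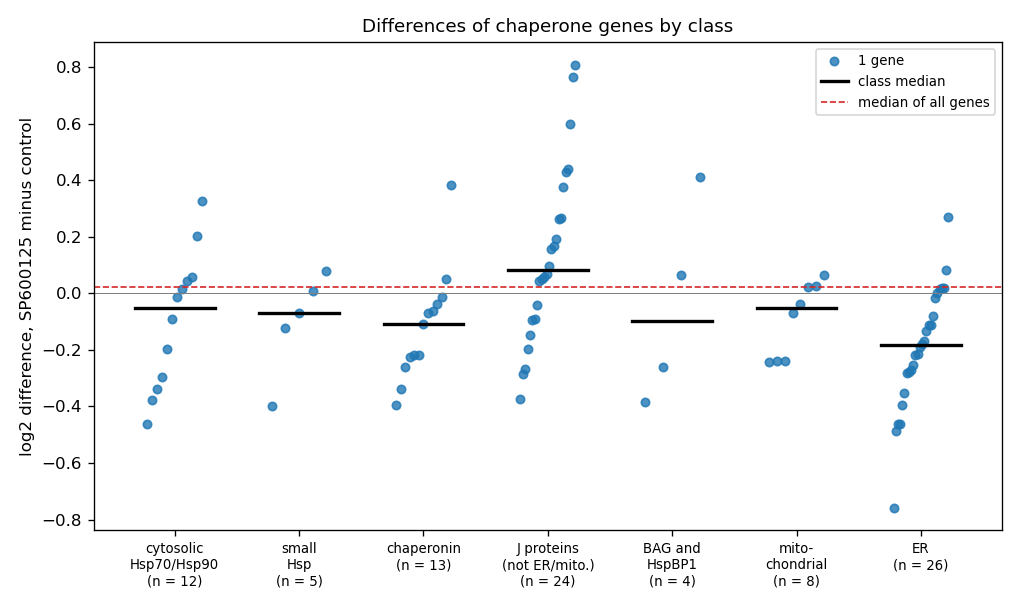
Log2 difference, SP600125 minus control, of each chaperone gene (points, 1 probe set per gene) by class, with the class median (black bar) and the median of all genes (dashed line, 0.02). The ER genes lie mostly below 0, with a median of −0.18, and the J-protein genes mostly above, with a median of 0.08.

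Means were lower after treatment for 56 of the 94 genes and higher for 38, while 45.9 percent of all 11295 genes had lower means. This majority rests on single arrays: 43 of the 94 were lower without SP600125 replicate 1, where 41.8 percent of all genes were, and 45 without control replicate 2, where 42.3 percent were. Without control replicate 1 it was 66, against 51.9 percent of all genes, and without SP600125 replicate 2 it was 59, against 51.6 percent. The median difference was −0.07 over the chaperone genes and 0.02 over all genes. Both SP600125 arrays lay below both controls for 16 of the 94, 17.0 percent of them, against 9.1 percent of all genes. They lay above both controls for 9, which is 9.57 percent, against 12.3 percent of all genes. The 9 include hspb11.L and hspbap1.L, which match the naming rule by name only, and without them 7 of 92 remain. Among the 38 chaperone genes with a mean level of at least 10, 29 had lower means, while of all genes this bright 41.5 percent did. That cutoff was set by the upper levels of the ER genes. Most of the 38 were ER or chaperonin genes, so this count is not separate from those of the 2 classes below. The arrays differed more by replicate number than by treatment. Replicate number took up 63.3 percent of the sum of squares of the 121 probe sets and treatment 17.6 percent, close to the 62.7 and 20.8 percent of all probe sets. For 54 of the 94 genes the difference between replicate numbers was larger than the difference between groups, as it was for 70.1 percent of all genes.

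Markers of the labelled tissue were bright. Of 13 epidermal markers, 12 were found as 26 genes, with a median level of 11.60. Their signals were summed on the linear scale and the sum was put on the log2 scale, so the brightest genes weigh most. This summed signal was 17.00 and 17.05 in the controls and 17.07 and 17.08 after SP600125. Summed signals of other markers are given in the same way. Means were higher for 16 of the 26 and lower for 10, with a median difference of 0.05. Both treated arrays lay above both controls for 7, 26.9 percent, against 12.3 percent of all genes. They lay below both for 0, against 9.1 percent of all genes. Muscle and somite markers were also present in controls, with a control mean of at least 5 for 23 of 33 genes; a probe set with a 4-array mean under 5 is called dim here, as 11 of the 33 were. The summed signal of the muscle and somite markers was 13.54 and 12.71 in the controls and 11.03 and 11.65 after SP600125. Means were lower for 30 of 33, with a median of −1.27. The calcium channel subunit gene cacng1.L had a difference of −1.85 ± 0.29, the muscle actin gene actc1.L of −1.98 ± 0.52, and the dim gene actn2.S of 0.10 ± 0.23. Endoderm and notochord markers had a median of −0.58 (16 of 19 means lower, 7 of 19 genes dim), with summed signals of 11.79 and 11.57 in controls and 10.93 and 10.80 after treatment. Neural markers had a median of −0.22 (14 of 16 means lower, 4 of 16 dim), and basal layer and matrix markers one of −0.35 (8 of 9 means lower, 1 of 9 dim). The summed signal of the neural markers was 12.85, 12.16, 12.16 and 12.28, and that of the basal layer markers 12.98, 12.32, 12.52 and 11.66. In whole skins, fewer cells of a type and less RNA per cell cannot be told apart. Among the epidermal markers grhl3.L, an outer layer factor, differed by 0.27 ± 0.19 and the dim keratin gene krt12.6.S by −0.22 ± 0.24. Among the other markers, gata4.L differed by −1.41 ± 0.20, cer1.S by 0.35 ± 0.23, en2.L by −1.10 ± 0.29, syt1.L by 0.05 ± 0.19 and col4a1.L by 0.01 ± 0.21. The part of these tissues in the chaperone differences was not tested.

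The ER chaperone genes formed the largest class, with 26 genes. They include the ER members of the Hsp70 and Hsp90 families, the lectin chaperones that bind sugar-tagged proteins, the protein disulfide isomerases that form and reshuffle disulfide bonds, and the ER J proteins. Means were lower for 20 of the 26 and higher for 6, with a median difference of −0.18 against 0.02 for all genes. Both treated arrays lay below both controls for 6 of them, 23.1 percent, against 9.1 percent of all genes. They lay above both for 1, the J protein dnajb12.S, which is 3.85 percent, against 12.3 percent of all genes. The median deviation of the class from each gene's mean over the 4 arrays was 0.04 and 0.16 in the controls and −0.05 and −0.08 after SP600125. All genes together gave −0.06, 0.02, −0.03 and 0.06 in the same order. Without SP600125 replicate 1 the median of the class was −0.12, and 15 of 26 means were lower, as many as without control replicate 2.

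**Figure D2:**
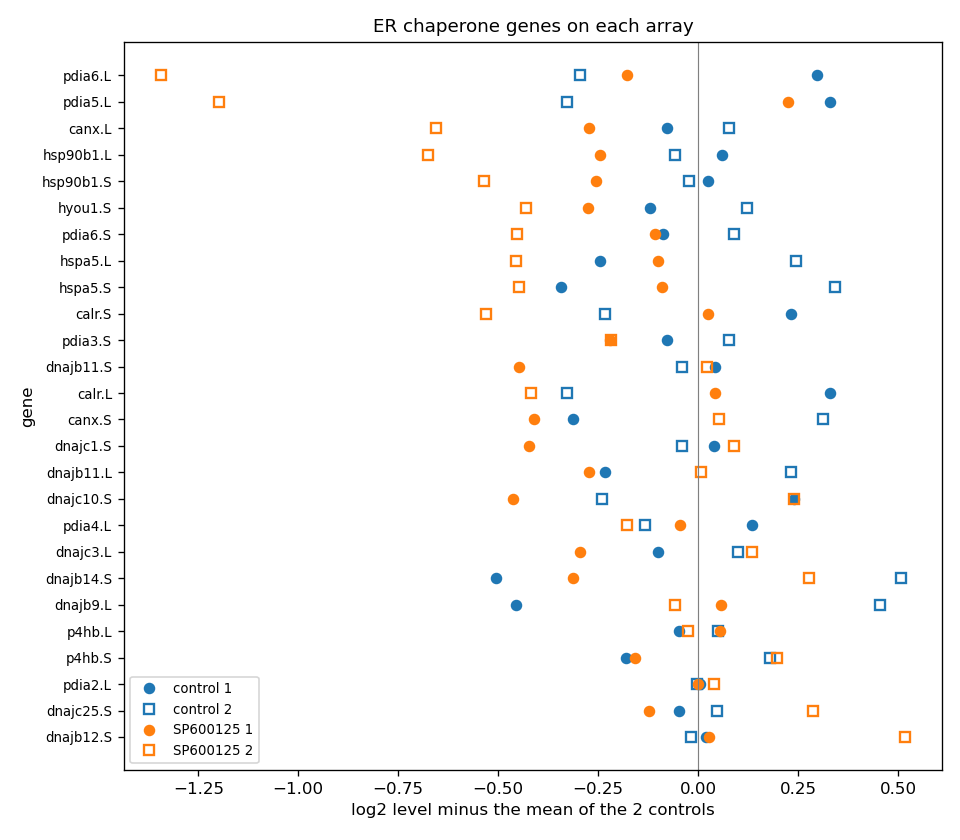
Log2 level of each ER chaperone gene on each array, less the mean of the 2 controls (blue, controls; orange, SP600125; circles, replicate 1; squares, replicate 2), sorted by difference. For canx.L, hsp90b1.L, hsp90b1.S, hyou1.S, pdia3.S and pdia6.S both orange symbols lie to the left of both blue ones, and for pdia6.L and pdia5.L SP600125 replicate 2 lies far to the left of the other arrays.

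The ER Hsp90, Grp94, is needed for the folding of integrins and other secreted or membrane proteins, and both copies of its gene were measured. Suffixes .L and .S mark the copies that the allotetraploid frog carries. The copy hsp90b1.L read 12.94, 12.83, 12.64 and 12.21, a difference of −0.46 ± 0.24. The copy hsp90b1.S read 12.01, 11.97, 11.73 and 11.45, a difference of −0.40 ± 0.21. In both copies the controls lay close together, both treated arrays lay below them, and SP600125 replicate 2 was the lowest array. Neither passed (limma, unadjusted p = 0.127 and 0.130, adjusted p = 1), and the 95% interval of hsp90b1.L ran from −1.13 to 0.20. The integrin gene itgb1.L was named for the smallest p of the basal layer markers with a lower mean. It had a mean difference of −0.58 ± 0.21 and did not pass either. A link between its transcript level and that of hsp90b1 was not tested.

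The ER Hsp70, BiP, is the best-known target of the unfolded protein response. Its gene copy hspa5.L read 12.001, 12.491, 12.146 and 11.791, and hspa5.S read 10.99, 11.68, 11.24 and 10.88. In both copies the groups overlapped: control replicate 2 was the highest array and SP600125 replicate 2 the lowest, with both arrays of replicate 1 near each other. The differences were −0.28 ± 0.28 and −0.27 ± 0.33, with 95% intervals of −1.05 to 0.49 and −1.17 to 0.63. The nucleotide exchange factor of BiP, hyou1.S, read 7.85, 8.09, 7.70 and 7.54. Both treated arrays lay below both controls, with a difference of −0.35 ± 0.21.

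Calnexin and calreticulin hold newly made glycoproteins in the ER until they are folded. The level of canx.L was 12.12, 12.27, 11.92 and 11.54, a difference of −0.46 ± 0.23 with both treated arrays below both controls. Its copy canx.S read 10.51, 11.14, 10.41 and 10.88, so that the groups overlapped, and differed by −0.18 ± 0.33. The calreticulin copy calr.L read 12.62, 11.96, 12.33 and 11.87, and calr.S read 13.01, 12.54, 12.80 and 12.25. For both, the arrays of replicate 1 were high and those of replicate 2 low in either group, and the differences were −0.19 ± 0.34 and −0.25 ± 0.31.

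Among the disulfide isomerases, p4hb, which encodes the founding member of the family, showed almost equal levels in the 2 groups at its brightest probe sets. The copy p4hb.L read 13.28, 13.37, 13.38 and 13.30, a difference of 0.01 ± 0.19 with a 95% interval of −0.51 to 0.54. Its other probe set differed by 0.15 ± 0.32. The copy p4hb.S read 10.89, 11.25, 10.91 and 11.27, where only replicate number set the arrays apart, and differed by 0.02 ± 0.26. The following isomerases were picked after their values were seen. The gene pdia3.S, whose product works with calnexin and calreticulin, read 12.79, 12.95, 12.65 and 12.65, with both treated arrays below both controls and a difference of −0.22 ± 0.19. The isomerase gene pdia6.L read 11.471, 10.879, 10.998 and 9.832, the lowest mean difference of all chaperone genes at −0.76 ± 0.49. Without SP600125 replicate 2 that difference was −0.18. The groups of pdia6.L overlapped. At the brightest probe set of each gene, it was the only chaperone gene with a mean at least 1.5-fold lower. Its copy pdia6.S read 11.54, 11.71, 11.52 and 11.17, a difference of −0.28 ± 0.23 without overlap. There SP600125 replicate 1 lay just below control replicate 1. The gene pdia5.L read 10.35, 9.69, 10.25 and 8.82, which rests on SP600125 replicate 2: the difference was −0.49 ± 0.58, and 0.22 without that array. The gene pdia4.L differed by −0.11 ± 0.21.

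The 9 ER J-protein genes differed less than the other ER genes, with a median of −0.08 against −0.27 over the remaining 17, a split made after the values were seen and not tested. The BiP partner dnajb11 differed by −0.13 ± 0.26 for dnajb11.L and by −0.21 ± 0.25 for dnajb11.S. The gene dnajb9.L, a target of XBP1 that represses IRE1, read 8.93, 9.84, 9.44 and 9.33, with both treated arrays between the controls and equal group means of 9.39. The membrane-anchored J protein dnajb12.S, a factor of ER-associated degradation, read 8.77, 8.73, 8.78 and 9.27. Its difference of 0.27 ± 0.25 came from SP600125 replicate 2, while replicate 1 was at the level of the controls.

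The cytosolic chaperonin is a double ring of 8 kinds of subunit, of which all 8 were measured, as 13 genes. Means were lower for 11 of the 13 genes, with a median of −0.11. The number was 9 without control replicate 2, where 42.3 percent of all genes were lower. It was also 9 without SP600125 replicate 1, where 41.8 percent were. Both treated arrays lay below both controls for 5, 38.5 percent, against 9.1 percent of all genes. They lay above both for 0, against 12.3 percent of all genes. The median deviation of the class was 0.09 and 0.07 in the controls and −0.07 and −0.04 after SP600125, so that the arrays separated by group, although by less than 0.2 log2 units. The subunit gene tcp1.L read 10.96, 11.25, 10.83 and 10.95 and differed by −0.22 ± 0.21 without overlap, the last array lying just below control replicate 1. Its copy tcp1.S read 10.25, 11.20, 10.40 and 10.92, split by replicate number rather than by group, and differed by −0.06 ± 0.42. The gene cct2.S read 10.53, 10.67, 10.09 and 10.43, with a difference of −0.34 ± 0.23 and both treated arrays low. Its other 2 probe sets differed in the same direction, the smallest by −0.21.

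Further chaperonin subunits, named after their values were seen, differed by −0.39 ± 0.36 for cct3.S, −0.22 ± 0.21 for cct7.S, −0.23 ± 0.19 for cct8.S and −0.07 ± 0.19 for cct8.L. In cct7.S, cct8.S and cct8.L both treated arrays lay below both controls, narrowly so in cct7.S and cct8.L. In cct3.S the groups overlapped. The gene with the highest mean difference of the class, cct4.L, read 8.15, 10.71, 9.03 and 10.59. It followed replicate number, at 2.06 log2 units between the numbers, and its group difference of 0.38 ± 1.07 turned to −0.90 without control replicate 1. Its copy cct4.S read 12.38, 12.31, 12.26 and 12.36, nearly the same on every array, with a difference of −0.04 ± 0.19. The other 4 chaperonin genes differed by less than 0.3 log2 units in either direction.

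**Figure D3:**
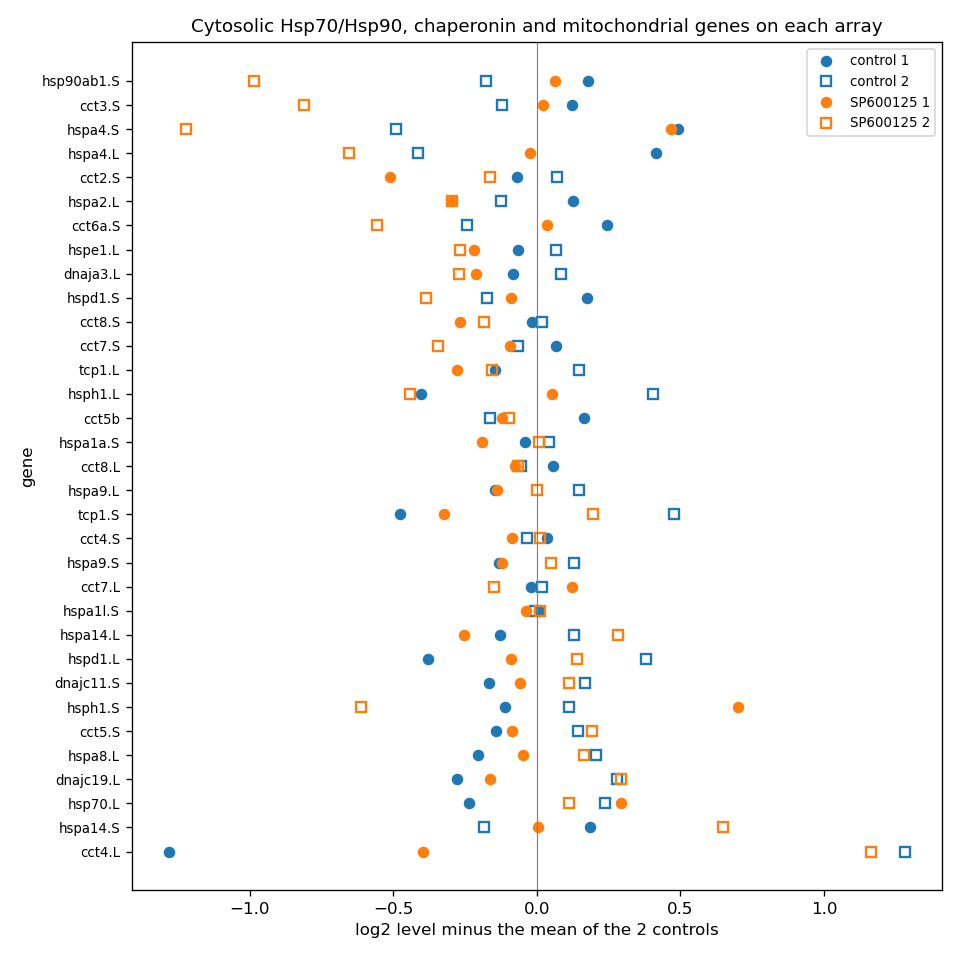
Log2 level of each cytosolic Hsp70 or Hsp90, chaperonin and mitochondrial chaperone gene on each array, less the mean of the 2 controls, with symbols by group and replicate number and genes sorted by difference. The arrays of cct4.L spread by replicate number, while hspa1l.S and cct4.S lie close to 0 on all 4 arrays.

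The cytosolic Hsp70 and Hsp90 genes did not differ in one direction. Of 12 genes, 7 had lower and 5 higher means, with a median of −0.05. Both treated arrays lay below both controls for 1, 8.33 percent, against 9.1 percent of all genes. They lay above both for 0, against 12.3 percent of all genes. The constitutive Hsc70 gene hspa8.L read 13.37, 13.78, 13.53 and 13.74, with treated arrays between the controls and a difference of 0.06 ± 0.24. The Hsp70 gene hspa1l.S read 13.68, 13.67, 13.64 and 13.69, the same level on every array within 0.1 log2 units, and differed by −0.01 ± 0.19. Its 95% interval of −0.52 to 0.50 leaves room for a level between about 0.70 and 1.41 times that of the controls.

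Heat-inducible Hsp70 genes are the usual readout of the heat shock response. The gene annotated as hsp70.L read 5.83, 6.30, 6.36 and 6.18, with both treated arrays near control replicate 2, and differed by 0.20 ± 0.26. The gene hspa1a.S was dim on all arrays, at 2.87, 2.96, 2.73 and 2.92, where small differences cannot be resolved. The dim gene hspa2.L read 4.66, 4.41, 4.24 and 4.24 and differed by −0.30 ± 0.20. The copy hspa14.S, of a ribosome-associated Hsp70, read 8.362, 7.996, 8.182 and 8.828, a difference of 0.33 ± 0.32 with overlapping groups.

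The cytosolic Hsp90 gene hsp90ab1.S read 12.62, 12.26, 12.51 and 11.46. SP600125 replicate 2 was low and the other 3 arrays lay close together. The difference of −0.46 ± 0.43 at this brightest probe set was 0.06 without that array. The remaining 2 probe sets of the gene differed by −0.62 and −0.61. In these, SP600125 replicate 1 read 11.12 and 11.30, between the controls but below the control means of 11.29 and 11.47. The Hsp110 genes, which exchange nucleotides for Hsp70, were set by single arrays or by replicate number. The copy hspa4.S read 10.17, 9.19, 10.15 and 8.46 and differed by −0.38 ± 0.71, and hspa4.L differed by −0.34 ± 0.41. The copy hsph1.S read 9.42, 9.65, 10.23 and 8.92, with the treated arrays on either side of the controls, and differed by 0.04 ± 0.50. The copy hsph1.L differed by −0.20 ± 0.38.

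The small heat shock proteins keep unfolded proteins soluble without ATP and are abundant in muscle of many vertebrates. Of their 5 genes 4 were dim, so that this array set gives little on the class. The gene hspb1.L read 3.42, 3.54, 3.23 and 3.50, and hspb1.S read 3.002, 2.902, 2.930 and 2.993, without a difference beyond their spread. The gene hspb8.L, whose product works with BAG3, read 4.31, 4.09, 3.71 and 3.89, both treated arrays below both controls, and differed by −0.40 ± 0.21. The dim gene hspb6.L differed by 0.08 ± 0.20. The only small heat shock gene above the dim level, hspb7.L, encodes a protein of heart and skeletal muscle. It read 5.39, 6.42, 5.41 and 6.26, low on both arrays of replicate 1, and differed by −0.07 ± 0.50, while muscle and somite markers differed by a median of −1.27.

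Of the 24 J-protein genes of the cytosol, nucleus and vesicles, 16 had higher and 8 lower means, with a median of 0.08, and means were lower for 45.9 percent of all genes. This split depends on the choice of probe set and on single arrays. Over all 31 probe sets of the class 16 were higher and 15 lower, with a median of 0.04, and with the probe sets of each gene averaged 10 of the 24 genes were lower. Leaving out control replicate 1 or SP600125 replicate 2 gave 12 lower of 24, where 51.9 and 51.6 percent of all genes were. Leaving out control replicate 2 or SP600125 replicate 1 gave 7 and 6 lower, where 42.3 and 41.8 percent of all genes were. The median was 0.07 within replicate number 1 and −0.02 within number 2. Both treated arrays lay above both controls for 4, where all genes gave 12.3 percent, and below both for 1, where they gave 9.1 percent, counts near the background for so few genes. The class took in by default every J-protein gene not listed as mitochondrial or ER, dnajc28.L and dnajc4.L among them, so its name may not hold for each. The 3 chaperone genes with a mean at least 1.5-fold higher were all in this class. The Hsp70 partner dnajb4.S read 7.18, 7.37, 7.89 and 7.86, tight within each group and higher in both treated samples. It differed by 0.60 ± 0.20, a 1.52-fold difference, with a 95% interval of 0.06 to 1.14. This was the smallest p of all chaperone probe sets (limma, unadjusted p = 0.0369, adjusted p = 1), yet 183 other probe sets on the arrays had a smaller one. Its unadjusted p was no longer under 0.05 when dim probe sets were left out of the fit or when either control was. The gene dnajc28.L read 6.54, 6.32, 6.80 and 7.67, where both treated arrays were above the controls and SP600125 replicate 2 most of all. It differed by 0.81 ± 0.36, with a 95% interval of −0.19 to 1.80. The dim gene dnajb2.L, which encodes a J protein with ubiquitin-binding motifs, read 3.71, 4.28, 5.36 and 4.17, and its 0.77 ± 0.49 rests on SP600125 replicate 1.

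The gene dnaja4.1.L read 9.64, 10.26, 10.73 and 10.05, with overlapping groups and a difference of 0.44 ± 0.37. The splicing-associated dnajc17.S differed by 0.43 ± 0.28 with both treated arrays above both controls. In the other direction, dnajc7.L, which passes clients between Hsp70 and Hsp90, read 9.70, 9.37, 9.32 and 9.18, a difference of −0.29 ± 0.22. Its other probe set read lower in both treated arrays too and differed by −0.44. The remaining J-protein genes of this class lay between −0.37 and 0.37, none with an unadjusted p under 0.05.

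**Figure D4:**
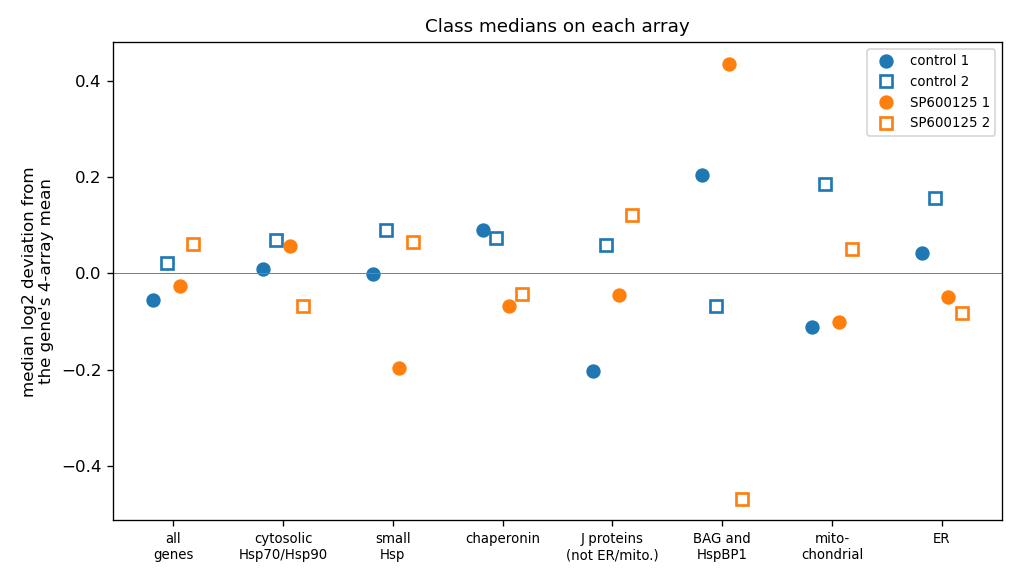
Median log2 deviation of each class from the gene's mean over 4 arrays, for each array (blue, controls; orange, SP600125; circles, replicate 1; squares, replicate 2). The ER and chaperonin classes have both treated arrays below both controls, whereas in the mitochondrial and J-protein classes the arrays order by replicate number.

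The BAG and nucleotide exchange cofactor class held 4 genes. The gene hspbp1.L, encoding an exchange factor of cytosolic Hsp70, read 9.43, 9.73, 10.04 and 9.95, with both treated arrays above both controls and a difference of 0.41 ± 0.21. The gene bag3.L, a heat shock factor target, was dim and read 4.56, 4.61, 4.62 and 4.68, with a difference of 0.06 ± 0.19. The quality control factor gene bag6 followed replicate number in both copies. The copy bag6.L read 9.54, 8.65, 9.84 and 7.83, a difference of −0.26 ± 0.79, and bag6.S differed by −0.38 ± 0.63. The class median of −0.10 moved between −0.55 and 0.44 when single arrays were left out, and 4 genes give no common direction.

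The mitochondrial chaperone genes numbered 8, of which 5 had lower and 3 higher means, with a median of −0.05. Both treated arrays lay below both controls for 2, 25 percent, against 9.1 percent of all genes. They lay above both for 0, against 12.3 percent of all genes. Mitochondrial Hsp70, which pulls proteins into the matrix, is encoded by hspa9. The copy hspa9.L read 9.48, 9.77, 9.49 and 9.62 and hspa9.S read 9.79, 10.05, 9.80 and 9.97, with treated arrays between the controls and differences of −0.07 ± 0.22 and −0.04 ± 0.21. The Hsp60 gene hspd1.S read 11.28, 10.93, 11.01 and 10.72, with overlapping groups, and differed by −0.24 ± 0.24, while its other probe set differed by 0.03. The copy hspd1.L was dim and differed by 0.02 ± 0.33. The gene of its lid, Hsp10, hspe1.L, read 10.73, 10.87, 10.58 and 10.53, both treated arrays lower, a difference of −0.24 ± 0.19. The J protein gene dnaja3.L differed by −0.24 ± 0.19 without overlap, but by 0.12 in its other probe set. The import motor gene dnajc19.L differed by 0.07 ± 0.31.

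A pair of genes matched the naming rule without encoding a chaperone or cofactor in the sense used here, and were left out of the class medians. The gene hspb11.L encodes IFT25, a part of the intraflagellar transport complex that moves cargo along cilia. It read 7.30, 7.29, 7.66 and 7.98, tight in the controls and higher on both treated arrays, and differed by 0.52 ± 0.22 (95% interval −0.07 to 1.12). Motile cilia markers, measured beside it, had 9 of 16 higher means and a median of 0.04. Their median was 0.47 within replicate number 1 and −0.39 within number 2. Both treated arrays lay above both controls for 4, 25 percent, against 12.3 percent of all genes, and below both for 0, against 9.1 percent. The summed signals of these markers were 12.62 and 12.95 in the controls and 13.08 and 12.61 after SP600125. The axonemal dynein gene dnai2.S among them differed by 0.49 ± 0.24 and rsph1.L by −0.25 ± 0.32. The J protein of the ciliary radial spoke, dnajb13.S, read 8.05, 8.19, 8.60 and 8.17 and differed by 0.27 ± 0.24 through SP600125 replicate 1. The part of multiciliated cells in these values was not tested. The remaining name match, hspbap1.L, was dim.

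Genes with both copies measured numbered 22, and both copies had lower means in 12, both higher in 4, and opposite signs in the others. The gap between copies had a median of 0.14 log2 units and a largest value of 0.53. Probes of one copy can bind transcripts of the other, so the copies are not independent. Of the 19 genes with more than 1 probe set, 13 had the same sign in all of them, with a median gap of 0.14.

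**Figure D5:**
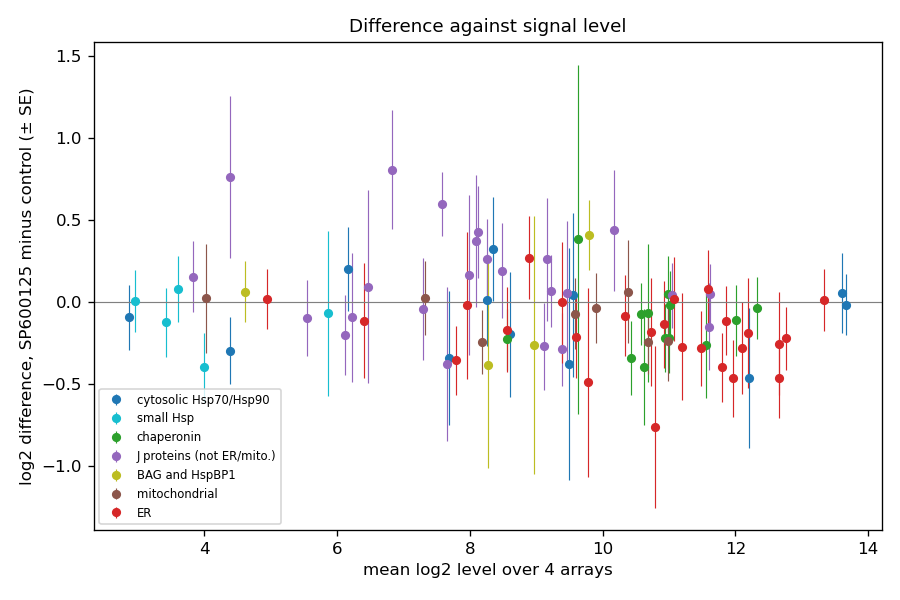
Log2 difference, SP600125 minus control, with SE of the limma fit, against the mean log2 level over 4 arrays for each chaperone gene, coloured by class. Most points brighter than 10 lie below 0, and the points with the largest positive differences lie between 4 and 8.

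Regulators and cochaperones outside the naming rule gave no common direction. Of the 69 listed names 51 were found, as 66 genes, of which 35 had higher and 31 lower means, with a median of 0.03. With limma, 0 of them had an adjusted p under 0.05, and 0 an unadjusted p under 0.05 in either direction. The 5 dim genes of the list were hsf1, hsf1.S, atf6.S, the PERK gene eif2ak3.S and ddit3.L. Small differences of these sensors and factors cannot be resolved here. The unfolded protein response factor gene xbp1.L read 10.38, 10.26, 10.42 and 10.22, the groups overlapping on the same level. An array signal for a gene does not separate its spliced form, which marks the active response. The gene atf4.L, translated when PERK is active, differed by −0.24 ± 0.30. The ER stress target gene herpud1.S had a higher mean, at 0.51 ± 0.45, as did herpud1.L at 0.19 ± 0.51, both with overlapping groups. The heat shock factor binding protein gene hsbp1.S differed by 0.71 ± 0.43, the smallest p of the list with a higher mean. With lower means, the smallest p belonged to cdc37.S, the Hsp90 cochaperone for kinases, at 10.74, 10.76, 10.62 and 10.37, a difference of −0.26 ± 0.20 without overlap. The gene vcp.S, a segregase of ER-associated degradation, had a mean difference of −0.64 ± 0.76.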

How the data were processed

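The deposited values are RMA log2 levels, 1 per probe set and array. Per the submitters' processing notes, affy and RMA were used, without versions. RMA normalizes quantiles across arrays, so a change shared by most transcripts is not visible, and it compresses small differences of dim probe sets. No label names the probe definition, options or filters. Scanner files were not analysed here, so no other background correction was tried. Of 16755 probe sets, 10 controls were left out. Symbols are those of the platform annotation at GEO, possibly outdated: 15445 probe sets had 1 symbol, 279 several and 1021 none. Of those with several symbols, 3 included a chaperone gene and were not used. All 121 members kept their symbols in a RefSeq gene table. Each gene was taken at its brightest probe set by 4-array mean, and a probe set was called dim at a mean under 5.

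The groups were compared in R 4.3.3 using limma 3.58.1 (a group term only, moderated by eBayes, two-sided, with 2 residual and 2.10 prior degrees of freedom), with Benjamini-Hochberg adjustment over all probe sets. Scripts were tested on simulated data, with noise smaller than the spread of these arrays and independent between arrays. That test checks the code and not the precision reached here. The number of arrays limits the precision. Classes were described by counts and medians, without a test. J-protein genes not on the mitochondrial or ER lists were put in 1 class by default, so some of their proteins may lie in those compartments. Always named were the main Hsp70, Hsp90, Hsp60, Hsp10, small heat shock, tcp1 and ER chaperone genes. The rule added the gene with the smallest p in each class and direction and any member without overlap and at least 1.5-fold apart. Of the always-named genes, hsp90aa1, the hsp30 genes, dnajb1 and hspg2 were not matched and are not analysed here. Other genes were named after their values were seen, among them actc1.L, xbp1.L, atf4.L, herpud1, vcp.S and the Hsp110, BAG and further J-protein genes. The members and lists were chosen with earlier results of these data known. Alternatives were a replicate block, dim probe sets left out, cyclic loess or quantile normalization again, a trended robust prior, other thresholds, averaging all probe sets of a gene, and each array left out. Python 3.11.15 and matplotlib 3.10.9 drew the figures.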

Additional observations from a re-analysis of the deposited data

How the results depend on the processing

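No alternative brought a chaperone probe set past an adjusted p of 0.05 or 0.1, and the lowest adjusted p of any probe set was 0.761, with the replicate block. At an unadjusted limma p under 0.05, 269 probe sets and 1 chaperone probe set, for dnajb4.S, passed. With dim probe sets left out of the fit 0 chaperone probe sets did, against 1.31 percent of all probe sets. After cyclic loess it was 1, or 0.83 percent, against 1.69 percent of all. Renewed quantile normalization also gave 1, against 1.70 percent of all. Chaperone probe sets without overlap numbered 29 on 4 arrays, or 24.0 percent against 21.2 percent of all probe sets. They numbered 28 after cyclic loess (21.5 percent of all), 24 without dim probe sets (19.6 percent of all), and 66 to 84 when an array was left out (50.5 to 70.2 percent of all), where fewer arrays make overlap rarer. The chaperonin median was −0.14 after cyclic loess and −0.13 after renewed quantile normalization. The number of ER genes with lower means was 22 of 26 under either. Of all genes, 50.3 percent had lower means after cyclic loess and 47.1 percent after quantile normalization, against 45.9 percent in the main fit. The median of all probe sets stayed within 0.1 of 0. When arrays were left out in turn, class medians ran as follows: cytosolic Hsp70 and Hsp90 −0.14 to 0.061, small heat shock −0.26 to 0.041, chaperonin −0.15 to −0.094, J proteins 0.017 to 0.26, BAG and cofactors −0.55 to 0.44 and ER −0.24 to −0.12. The mitochondrial median ran from −0.22 to 0.086. Of 64 chaperone genes named, 30 kept their sign under every alternative. Those whose sign turned with an array left out had these ranges of the log2 difference: bag6.L −1.26 to 0.74, bag6.S −1.20 to 0.43, calr.L −0.52 to 0.14, calr.S −0.53 to 0.024, canx.S −0.49 to 0.13, cct3.S −0.81 to 0.022, cct4.L −0.90 to 1.67, cct4.S −0.086 to 0.012 and dnajb11.L −0.37 to 0.099. Further ranges were dnajb11.S −0.45 to 0.022, dnajb9.L −0.46 to 0.46, dnajc19.L −0.21 to 0.34, hsp70.L −0.032 to 0.44, hsp90ab1.S −0.99 to 0.064, hspa1a.S −0.19 to 0.0068, hspa1l.S −0.038 to 0.011, hspa4.L −0.75 to 0.075 and hspa4.S −1.22 to 0.47. The next were hspa5.S −0.61 to 0.073, hspa8.L −0.15 to 0.26, hspa9.L −0.22 to 0.078, hspa9.S −0.17 to 0.094, hspb1.L −0.26 to 0.014, hspb1.S −0.041 to 0.060, hspb6.L −0.025 to 0.19, hspb7.L −0.58 to 0.45 and hspd1.L −0.36 to 0.40. The last were hsph1.L −0.60 to 0.21, hsph1.S −0.61 to 0.70, p4hb.L −0.034 to 0.062, p4hb.S −0.16 to 0.20, pdia4.L −0.25 to 0.022, pdia5.L −1.20 to 0.22 and tcp1.S −0.54 to 0.41. Of the other genes named, ranges were actn2.S −0.045 to 0.24, atf4.L −0.49 to 0.015, col4a1.L −0.097 to 0.13, herpud1.L −0.37 to 0.75, krt12.6.S −0.44 to 0.0076, rsph1.L −0.58 to 0.080, syt1.L −0.039 to 0.13, vcp.S −1.58 to 0.31 and xbp1.L −0.10 to 0.10. The cause was not tested. Renewed scaling turned differences near 0: cyclic loess gave −0.053 for dnajb9.L, −0.018 for hspb1.S, −0.0091 for hsph1.S and −0.018 for p4hb.S. Quantile normalization gave −0.026, −0.013 and −0.021 for dnajb9.L, hspb1.S and p4hb.S, and −0.0039 for syt1.L. 

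The groups share replicate numbers, which the labels tie to no clutch, batch or day. Deviations from the group means correlated at 0.59 across all probe sets between same-numbered arrays, and with 2 pairs the numbers were not taken as pairs. A fit with a replicate block called 0 probe sets and 0 chaperone probe sets; in it 5 chaperone probe sets, 4.13 percent, had an unadjusted p under 0.05, against 6.35 percent of all probe sets. The block cannot move a difference in this balanced design, so its class medians say nothing on stability. Within replicate numbers 1 and 2 the ER median was −0.12 and −0.25, and the chaperonin median −0.13 and −0.20. The medians of the cytosolic Hsp70 and Hsp90 genes were −0.08 and −0.15 and of the small heat shock genes −0.07 and −0.05, while the sign turned for the J-protein (0.07 and −0.02), mitochondrial (0.0093 and −0.18) and BAG (0.23 and −0.37) classes. With 2 arrays per group a typical SE was 0.25 log2 units, so differences of the size seen here cannot be separated from the spread, and 12 of 94 genes were dim.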
